A study of Mus musculus with 9 samples.

Results

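Ffar2, Hcar2 and Olfr78 encode G protein-coupled receptors on the cell surface that sense short-chain fatty acids and related acids. They were taken by gene symbol, through the RefSeq accession that the array files give for each probe, and are 3 of the 15346 named genes tested. Each was read by 1 probe with 1 spot per array. Labelled RNA of normal colonic mucosa was hybridised to 9 mouse arrays with 1 dye. The mice were of the outbred ICR stock, and all of them were injected under the skin each week for 20 weeks with 1,2-dimethylhydrazine (DMH), a carcinogen that causes colon tumors in rodents, at 20 mg/kg. The butyrate groups of 3 arrays each drank water with 1.5% butyrate and are split by outcome, into mice with tumors and mice without tumors. The DMH group, also 3 arrays, drank plain water. Its labels call it a control and do not say whether its mice had tumors, and no group without DMH was compared. A further field of the labels gives all 6 butyrate samples the opposite tumor status from their titles, descriptions and source names. The groups here follow the titles. Nothing in the labels shows that the 3 samples of a group are separate mice, so p-values measure the spread between these samples, which may be technical.

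Bacteria in the colon ferment fiber to acetate, propionate and butyrate. Ffar2 (GPR43) answers all of these acids through inhibitory and Gq proteins and is known from neutrophils, regulatory T cells and the hormone-secreting enteroendocrine cells of the colon. Hcar2 (GPR109A), the niacin receptor, answers butyrate and the ketone body beta-hydroxybutyrate through inhibitory G proteins and is known from fat cells, neutrophils, macrophages and colon epithelium. Olfr78 (Or51e2) is an odorant receptor that works outside the nose, answers acetate and propionate through stimulatory G proteins, and is known from blood vessels, kidney and colonic enteroendocrine cells. Related genes lie next to members in the RefSeq annotation: Ffar3, for a further short-chain fatty acid receptor, beside Ffar2, and Hcar1, for the lactate receptor, beside Hcar2. No probe was named Ffar3, and the Hcar1 probe was well above background on 2 of 9 arrays, too few to be tested.

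The 250 bases before the most upstream RefSeq start of Ffar2 are shown because Ffar2 is the member with a call in 2 comparisons. They lie on the minus strand of GRCm38.p6 at chr7:30823776-30824025 and read 5′ to 3′, with capitals marking an E-box 102 bases before the start.
Ffar2: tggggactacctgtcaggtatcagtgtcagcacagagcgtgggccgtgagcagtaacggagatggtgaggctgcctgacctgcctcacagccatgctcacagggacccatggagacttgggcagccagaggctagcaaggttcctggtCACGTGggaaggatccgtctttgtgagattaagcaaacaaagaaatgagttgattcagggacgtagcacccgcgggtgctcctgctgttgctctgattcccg
The E-box letters searched were CACGTG, which read the same on both strands, and 6.02% of 32851 RefSeq windows of this length hold them. RefSeq gives Ffar2 4 starts, and the E-box was in 1 of their 4 windows, the one shown. The GC box letters GGGCGG were also searched on both strands. So were the TATA box letters TATAAA. The GC box was in 2 of the 4 windows, not the one shown, and in 32.7% of all windows, and the TATA box in 0 of the 4 and in 12.4% of all windows. Binding was not measured, and these matches describe letters only. No entry for Hcar2 (chromosome 5) or Olfr78 (chromosome 7) was in the table of promoter sequences used.

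Values below are the log2 of the background-subtracted signal minus the 75th percentile of the same array, so 0 is the brightness at that percentile. A value is comparable between arrays for 1 probe and not between probes. The 75th percentile lay between 188 and 880 intensity units, and the scanner software marked 57.8% to 72.5% of spots as well above background. Slide 1 carried array 1 with tumors beside all 3 arrays without tumors, and slide 2 carried the remaining arrays with tumors. DMH samples were on slides 3 and 4, scanned on a different day, so against DMH the effects of slide, scan day and butyrate cannot be told apart. All 12 colonocyte markers were well above background on 9 of 9 arrays, as the tissue label has it, and all 9 smooth muscle markers were measured too.

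Ffar2 was lowest in the mucosa of butyrate-treated mice with tumors and highest in DMH mice. Its level was -0.37, -0.32 and -1.42 on arrays 1 to 3 with tumors. Without tumors it was 0.73, 0.26 and 0.54, and on the DMH arrays it was 1.47, 1.02 and 0.95. No array of one group reached into the range of the next, and all 9 spots were well above background. Means were -0.70 ± 0.62 with tumors, 0.51 ± 0.24 without tumors and 1.15 ± 0.28 in DMH mice (SD, n = 3 each). In a bulk sample, fewer cells that carry a transcript and less of it per cell cannot be told apart.

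Hcar2 was dim on every array and dimmest in butyrate-treated mice without tumors. Before scaling, its signal was 5.71, 65.1 and 103 intensity units on arrays 1 to 3 with tumors, 6.12, 15.4 and 7.57 without tumors, and 125, 126 and 130 in DMH mice. It was well above background on 2 of 3 arrays with tumors (all but array 1), on 1 of 3 without tumors (array 2) and on 3 of 3 DMH arrays. Scaled, Hcar2 stood at -5.04, -3.68 and -3.10 with tumors, at -5.52, -4.85 and -5.78 without tumors, and at -2.57, -2.68 and -2.67 in DMH mice. The DMH arrays lay within 0.11 of each other and above every butyrate array, whereas the 2 butyrate groups overlapped through array 1 with tumors. Means were -3.94 ± 1.00 with tumors, -5.38 ± 0.48 without tumors and -2.64 ± 0.06 in DMH mice (SD, n = 3 each).

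Olfr78 showed no order of groups. It stood at -4.55, -1.21 and -2.68 on arrays 1 to 3 with tumors, at -3.84, -2.55 and -2.13 without tumors, and at -2.86, -2.65 and -2.71 in DMH mice. Array 1 with tumors, the lowest, was the only one not well above background, and array 2 with tumors was the highest. The DMH values fell inside the range of each butyrate group. Means were -2.81 ± 1.68 with tumors, -2.84 ± 0.89 without tumors and -2.74 ± 0.11 in DMH mice (SD, n = 3 each).

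**Figure D1:**
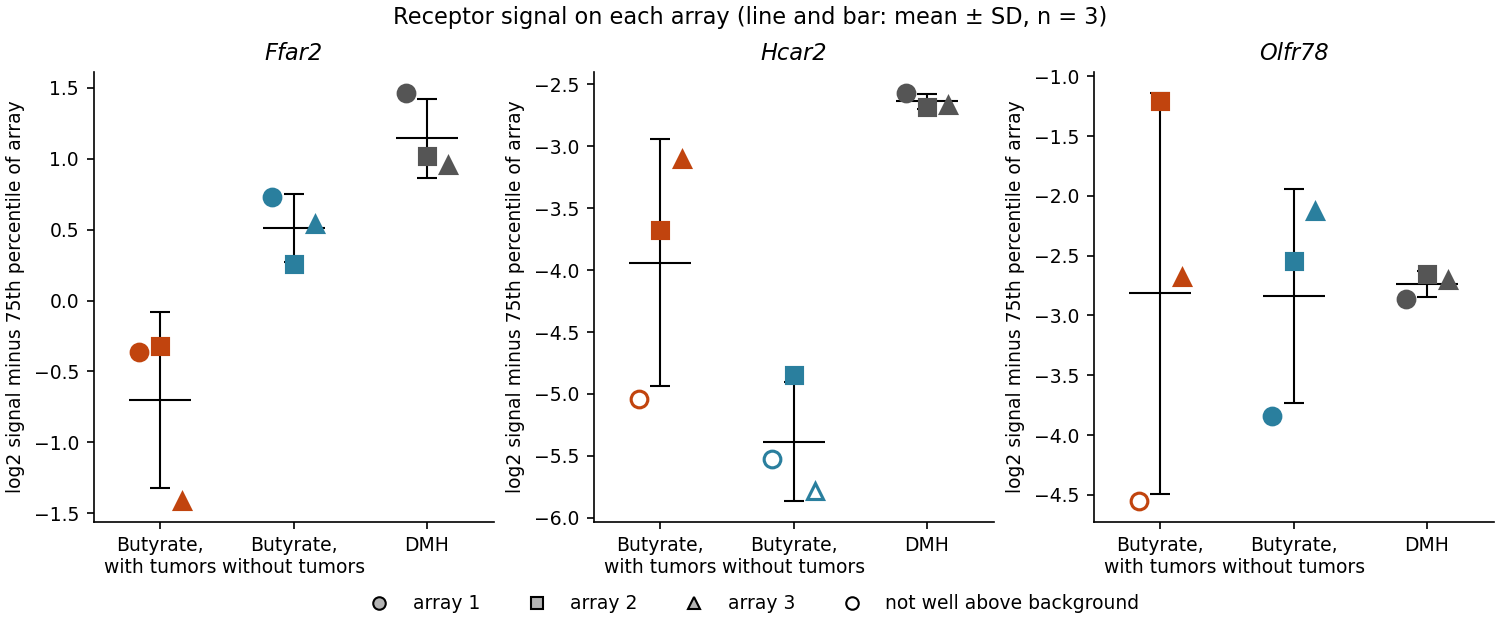
Scaled log2 signal of Ffar2, Hcar2 and Olfr78 on each array (y axis, log2 signal minus the 75th percentile of the array) in butyrate mice with tumors, butyrate mice without tumors and DMH mice; lines and bars are the mean ± SD of 3 arrays, and open symbols are arrays where the probe was not well above background. Ffar2 steps up over the 3 groups (means -0.70, 0.51 and 1.15), Hcar2 is lowest without tumors (-5.38), and the DMH points of Olfr78 lie inside the spread of both butyrate groups.

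The study named butyrate-treated mice against DMH mice as its question. Over all 6 butyrate arrays, Ffar2 and Hcar2 stood below all 3 DMH arrays, and neither passed the test across all features. The difference was -1.24 ± 0.43 on the log2 scale for Ffar2 (SE, limma adjusted p = 0.0914) and -2.02 ± 0.56 for Hcar2 (adjusted p = 0.0512). For each of these genes an exact permutation test over the 9 arrays, 2-sided, gave p = 0.0238, the smallest that the 84 splits allow. Olfr78 differed by -0.09 ± 0.63 (adjusted p = 0.937), with a 95% interval from -1.50 to 1.32. Of the 3 receptors limma called 0, and 2 had an unadjusted p under 0.05, while 9.2% of the 21964 features were called (3.35% as lower). Groups did not overlap for 2 of 3 receptors, against 26.3% of the features measured on all arrays (11.8% as lower). Ffar2 passed under 3 of 24 alternatives: array weights (adjusted p = 0.00876), a fit with 3 groups (0.0178) and a fit without the 4 arrays of slide 1 (0.0423). Without slide 1 the butyrate side holds only arrays 2 and 3 with tumors, so that fit no longer compares all butyrate arrays. Hcar2 passed under 7 of 22, among them without array 2 with tumors (0.0362) and without array 3 with tumors (0.0196), and without slide 1 its difference was -0.75.

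In mice with tumors against DMH mice, Ffar2 fell by 1.85 ± 0.31 on the log2 scale (limma adjusted p = 0.0291), a signal 3.59-fold lower. The 95% interval ran from -2.56 to -1.13, and the nearest arrays of the groups were 1.27 apart. Hcar2 differed by -1.30 ± 0.46 (adjusted p = 0.108) with all 3 arrays below the DMH arrays, by -0.75 without array 1 with tumors and by -0.66 after normexp background correction followed by quantile normalization (-1.53 with quantile normalization alone). Olfr78 differed by -0.07 ± 0.77 (adjusted p = 0.958; 95% interval -1.83 to 1.68) and by 0.80 without array 1 with tumors. So 1 of 3 receptors was called and 2 of 3 had groups apart, all as lower, against 5.7% of features called (2.26% as lower) and 42.5% apart (19.5% as lower). The Ffar2 call was lost under 9 of 24 alternatives, including slide as a random block (0.134) and DMH arrays 2 and 3 averaged into 1 sample (0.111). It was also lost without array 3 with tumors (0.0548), without DMH array 1 (0.0572), without DMH array 2 (0.115) and without DMH array 3 (0.113).

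In mice without tumors against DMH mice the receptor that fell was Hcar2. It fell by 2.75 ± 0.46 (limma adjusted p = 0.00548), a signal 6.71-fold lower, with a 95% interval from -3.80 to -1.70. The Hcar2 call held under 20 of 21 alternatives and was lost with slide as a random block (adjusted p = 0.0578). Its size rests on values near background, and after normexp correction with quantile normalization the difference was -0.81 (-2.53 with quantile normalization alone). Ffar2 differed by -0.63 ± 0.31 (adjusted p = 0.152; 95% interval -1.35 to 0.08), with the groups apart by 0.22. It passed with array weights (0.00673) and in a fit of only these groups (0.0447). Olfr78 differed by -0.10 ± 0.77 (0.931; 95% interval -1.85 to 1.66) and by 0.40 without array 1 without tumors. Here 30.5% of features were called (13.8% as lower) and 60% had groups apart (27.1% as lower), so 1 call in 3 and 2 of 3 apart are near what the array shows as a whole.

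Between the butyrate groups, Ffar2 was the receptor called. It fell by 1.21 ± 0.31 in mice with tumors against mice without tumors (limma adjusted p = 0.0413; 95% interval -1.93 to -0.49), with every array with tumors below every array without. Hcar2 differed by 1.44 ± 0.46 in the opposite direction (adjusted p = 0.0687), by 2.00 without array 1 with tumors (0.00588), by 1.00 with quantile normalization alone and by 0.15 with normexp before it. Olfr78 differed by 0.03 ± 0.77 (0.985; 95% interval -1.73 to 1.78), by 0.90 without array 1 with tumors and by -0.78 without array 2 with tumors. Of all features 13.5% were called (6.56% as lower) and 33.3% had groups apart (16.6% as lower), and 1 of 3 receptors, Ffar2, was both. Within slide 1, array 1 with tumors stood below the mean of the 3 arrays without tumors by -0.88 for Ffar2 and -1.71 for Olfr78 and above it by 0.34 for Hcar2. With slide as a fixed block the adjusted p was 0.225 for Ffar2, 0.616 for Hcar2 and 0.200 for Olfr78. The Ffar2 call held under 10 alternatives and was lost under 14. Among these, it was lost without array 1 (0.105), 2 (0.0746) or 3 (0.0893) without tumors, array 3 with tumors (0.0924), or DMH array 1 (0.0554), 2 (0.0720) or 3 (0.0708), and its difference was -0.85 without array 3 with tumors.

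**Figure D2:**
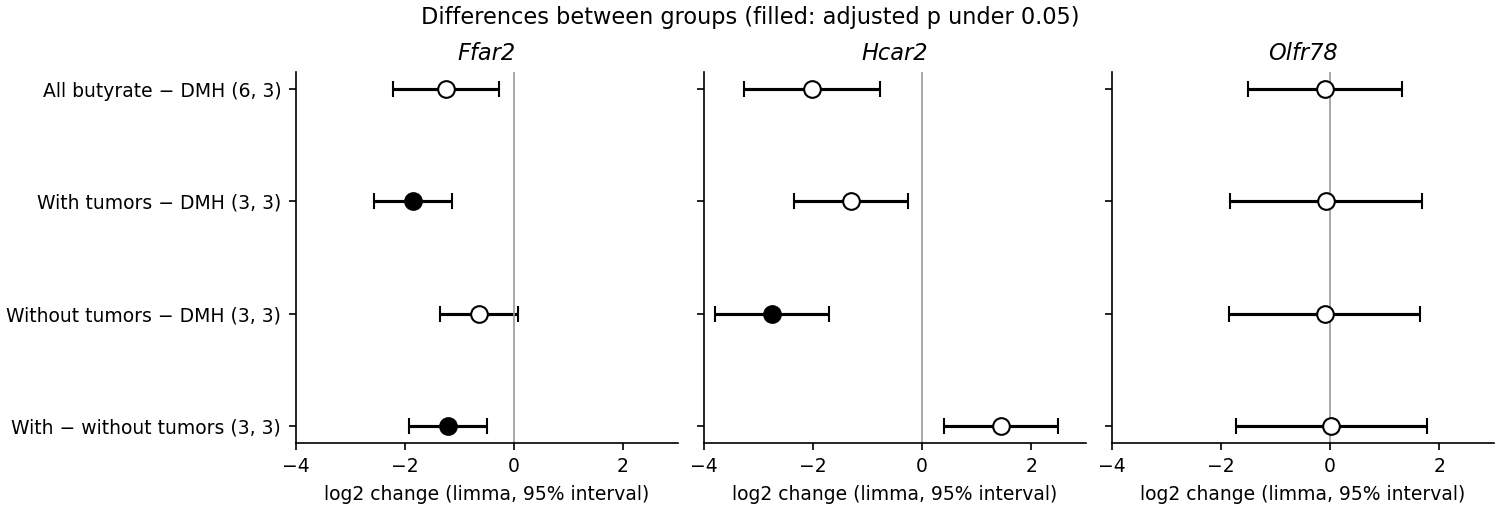
Log2 differences of the 3 receptors in 4 comparisons (x axis; bars are limma 95% intervals; numbers of arrays in parentheses), with filled circles where the adjusted p is under 0.05. Ffar2 is filled for mice with tumors against DMH (-1.85) and against mice without tumors (-1.21), Hcar2 for mice without tumors against DMH (-2.75), and each Olfr78 interval spans 0.

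Whether the receptors differed from each other in their response was asked with differences between 2 receptors on the same array, which do not depend on the scaling. Hcar2 minus Olfr78 was -1.84 ± 1.25 over 6 butyrate arrays and 0.10 ± 0.17 over 3 DMH arrays (SD), with 6 of 6 butyrate arrays below all DMH arrays. The exact permutation test, 2-sided, gave p = 0.0238, the smallest possible, and 0.0714 after adjustment over the 3 pairs. Hcar2 was not well above background on 3 of those 6 butyrate arrays, and with normexp background the difference was -0.72 in place of -1.94, with 5 of 6 arrays below (exact permutation p = 0.0476). Ffar2 minus Olfr78 differed by -1.15 between butyrate and DMH arrays (exact permutation p = 0.238, adjusted 0.357) and Ffar2 minus Hcar2 by 0.79 (0.452, adjusted 0.452). Within the butyrate arrays, Ffar2 minus Hcar2 was 4.68, 3.36 and 1.69 on arrays 1 to 3 with tumors, against 6.26, 5.11 and 6.32 on those without tumors. Those groups did not overlap and differed by -2.66, with exact permutation p = 0.1, the smallest that 3 against 3 can give, and 0.3 after adjustment. That comparison was chosen after seeing the data.

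The named genes most like each receptor were found by the root mean square difference of log2 values over the 9 arrays, each gene centred on its own mean. Likeness here partly reflects slide and array, which all genes share. For Ffar2 these were Cldn15, which encodes a tight junction protein (0.181), Grpr, for the gastrin-releasing peptide receptor (0.204), the glucose transporter gene Slc2a10 (0.281), the retinol carrier gene Rbp4 (0.313) and the steroid dehydrogenase gene Akr1c18 (0.328). The median over the 15272 genes compared was 0.937. In mice with tumors against DMH mice the difference was -1.90 for Cldn15 (limma adjusted p = 0.0227), -1.72 for Grpr (0.0256), -1.78 for Slc2a10 (0.0256) and -1.89 for Rbp4 (0.0267), and -1.31 for Akr1c18 (0.0760). These follow from choosing genes by their likeness over the same arrays and are no further support for Ffar2, and the same holds for the genes near Hcar2 and Olfr78. Hcar2 ranked 13668 of 15272 in likeness to Ffar2, and Ffar2 ranked 8911 in likeness to Hcar2, at the same difference of 1.39.

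Closest to Hcar2 were Fcgr1, for the high-affinity IgG receptor of macrophages (0.228), Tnfsf9, for the ligand of the T cell receptor CD137 (0.236), 4931414P19Rik (0.261), the claudin gene Cldn6 (0.267) and Pmepa1, a gene induced by transforming growth factor beta (0.284). The median over all genes was 1.32. In mice without tumors against DMH mice Fcgr1 fell by 2.58 (limma adjusted p = 0.00442) and Pmepa1 by 2.34 (0.00913). Tnfsf9, 4931414P19Rik and Cldn6 passed the background mark on 3 of 3 DMH arrays and on 0 of 3 arrays without tumors, so the size of their fall is uncertain. Measured against the lowest signal well above background on each array, or the probe's own where higher, they were 5.68-fold (adjusted p = 0.0103), 7.76-fold (0.00330) and 5.21-fold (0.0135) lower. These are not strict bounds: over 21 alternatives the smallest log2 differences were -0.61, -0.46 and -0.56. Closest to Olfr78 were the Src family kinase gene Yes1 (0.320), Tc2n (0.347), BC051019 (0.348) and the retinol dehydrogenase gene Rdh16 (0.360), and in all 4 comparisons 0 of these 4 was called by limma, the smallest adjusted p being 0.431 for Rdh16.

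Of 20 genes for other receptors of fatty acids, hydroxy acids and related metabolites, 15 could be tested. Ffar1 and Gpr132 were well above background on 0 arrays, and no probe was named Ffar3 or Oxgr1. Over all butyrate arrays against DMH arrays limma called 0 of 15 (3 at an unadjusted p under 0.05), with a median difference of 0.01 against 0.08 over all features. The share of all features called was 9.2% in this comparison and 5.7% with tumors against DMH. With tumors against DMH, 1 of 15 fell and 0 rose: Ffar4, for the receptor of long-chain fatty acids, fell by 1.22 ± 0.25 (adjusted p = 0.0401). In mice without tumors 4 of 15 rose and 2 fell against DMH (median 0.05, all features 0.08), not far from the 30.5% of all features called. Gpr119, for a lipid amide receptor, rose by 1.72 ± 0.33 (adjusted p = 0.00850). The nuclear fatty acid receptor genes Ppard and Pparg rose by 0.83 (0.0209) and 1.04 (0.0423) and Gpr35 by 0.56 (0.0440), though Gpr35 turned when its 2 probes were averaged (-0.39). With no scaling between arrays the median of all features was -1.004 in this comparison, against 0.08 with scaling. Ppard, Pparg and Gpr35 shifted along with all features, to -0.25, -0.038 and -0.52. Gpr84, for the receptor of medium-chain fatty acids, did not stand well above background without tumors (0 of 3 arrays). By the measure used for Tnfsf9 it was 2.83-fold lower there (adjusted p = 0.0359), and over 21 alternatives its log2 difference ranged from -2.66 to -0.13. Gpr183, an oxysterol receptor gene chosen after its values were seen, fell by 1.33 (adjusted p = 0.0250). With tumors against without, 2 of 15 rose and 3 fell (median -0.30, all features 0.01), where 13.5% of all features were called. Pparg stood at -1.42 (limma adjusted p = 0.0312) and Gpr183 at 2.10 (0.0158). The Pparg call held under 12 of 24 alternatives and the Gpr183 call under 21. Counts of called genes depend on the processing: over 23 alternatives, without tumors against DMH, between 0 and 5 rose and between 0 and 5 fell.

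**Figure D3:**
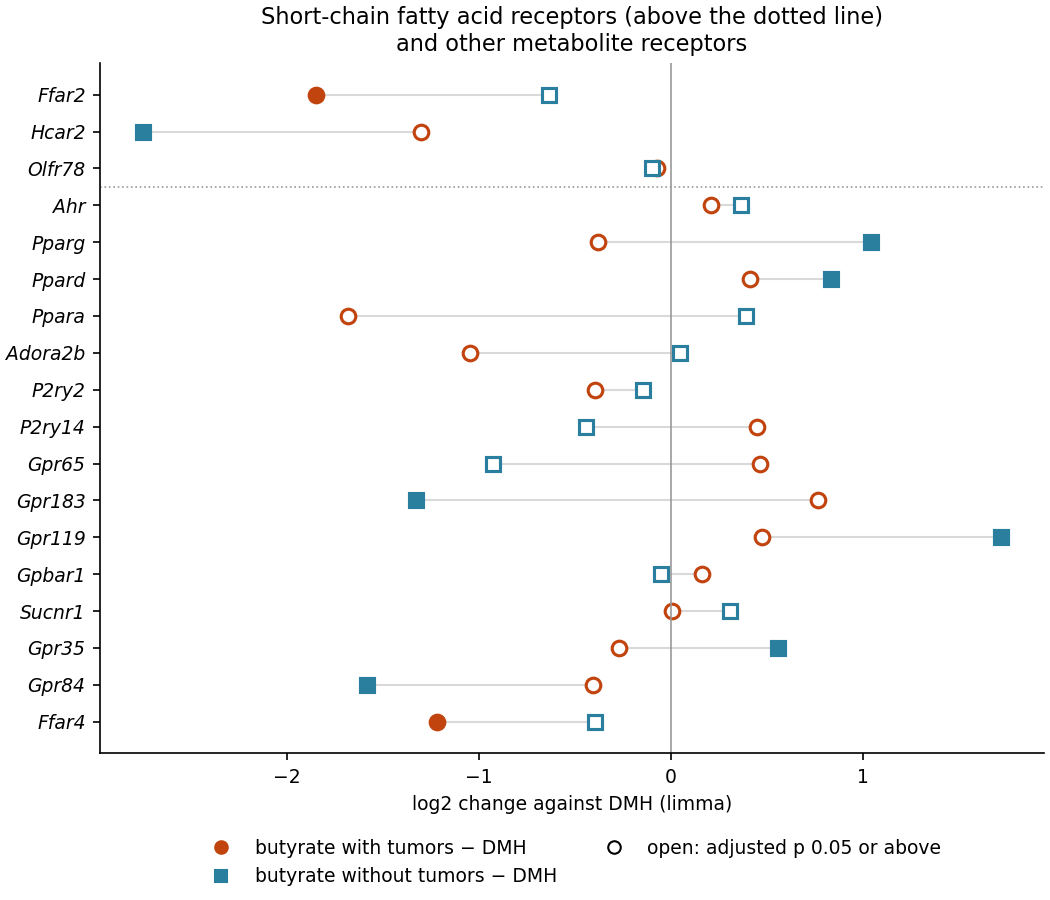
Log2 change against DMH mice (x axis) for Ffar2, Hcar2 and Olfr78, above the dotted line, and 15 other metabolite receptor genes; circles are butyrate mice with tumors, squares butyrate mice without tumors, and filled symbols have an adjusted p under 0.05. Hcar2 without tumors (-2.75) and Ffar2 with tumors (-1.85) lie farthest to the left.

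Of 39 genes for G proteins and their effectors 36 were tested. Rgs16, whose product shortens signalling by inhibitory G proteins, was the 1 called over all butyrate arrays against DMH arrays and rose by 0.79 ± 0.21 (limma adjusted p = 0.0471), 9 having an unadjusted p under 0.05. With no scaling Rgs16 was at -0.051, where the median of all features was -0.76. It also rose with tumors against DMH, by 0.98 ± 0.20 (0.0399), again as the 1 call of 36. Of all features 9.2% were called over all butyrate arrays and 5.7% with tumors against DMH, larger shares than 1 of 36. The Rgs16 call held under 9 of 24 alternatives in each of these comparisons. In mice without tumors 6 of 36 rose and 2 fell against DMH (median 0.15, all features 0.08), a smaller share than the 30.5% of all features called. Gna11 and Gnaq, for the alpha subunits that couple to phospholipase C, rose by 1.07 ± 0.18 (0.00579) and 0.83 ± 0.17 (0.0110), and Adcy5, for an adenylyl cyclase, by 1.30 ± 0.33 (0.0220). Reep1, of a family that helps odorant receptors to the cell surface, rose by 0.91 (0.0418). With no scaling Gna11, Gnaq and Reep1 shifted below 0 along with the median of all features. Gnai1, for an inhibitory alpha subunit, fell by 3.11 ± 0.56 (0.00695). Between the butyrate groups 1 was higher and 4 were lower with tumors (median -0.10, all features 0.01), among them Gna11 at -0.89 (0.0232) and Gnaq at -0.73 (0.0326). There 13.5% of all features were called (6.56% as lower). Over the alternatives, without tumors against DMH, between 0 and 15 rose and between 0 and 7 fell.

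Of 26 genes tied to Ffar2 or Hcar2 in work on the colon, such as hormone, cytokine and transporter genes, all were tested. Over all butyrate arrays against DMH arrays limma called 0 of 26 (4 at an unadjusted p under 0.05; median -0.40, all features 0.08), and with tumors against DMH 0 of 26 (8; median -0.14, all features 0.08). The hormone genes Gcg and Pyy had -1.54 ± 0.39 (limma adjusted p = 0.0551) and -0.87 ± 0.43 (0.210) in that last comparison. Of all features 9.2% were called over all butyrate arrays and 5.7% with tumors against DMH. In mice without tumors 1 of 26 rose and 5 fell against DMH (median -0.33, all features 0.08), again a smaller share than the 30.5% of all features called. The neutrophil chemokine gene Cxcl5 fell by 7.27 ± 0.90 (0.00196), although just 1 of 3 arrays in mice without tumors was well above background for it, the cytokine genes Il1b and Tnf by 1.81 (0.00750) and 1.14 (0.0164), and the inflammasome sensor gene Nlrp3 by 1.84 (0.0103). Cxcl2, another neutrophil chemokine gene, did not stand well above background without tumors (0 of 3 arrays). By the measure used for Tnfsf9 it was 8.61-fold lower than in DMH mice (adjusted p = 0.00584), and over 21 alternatives its log2 difference ranged from -4.75 to -0.76. Ptger4, for a prostaglandin E2 receptor, rose by 0.74 (0.0153) and shifted with all features to -0.34 with no scaling. Between the butyrate groups 5 rose and 3 fell with tumors (median 0.48, all features 0.01), and the 5 that rose were Cxcl5, Cxcl2, Il1b, Tnf and Nlrp3. There 13.5% of all features were called (6.56% as lower). Over the alternatives between 1 and 13 fell without tumors against DMH. With tumors against without, between 0 and 10 rose and between 0 and 6 fell.

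Markers of cell types in which these receptors are known were read beside them. All 13 enteroendocrine markers were measured. Their summed signal, in multiples of each array's 75th percentile, lay between 35.6 and 89.6 with tumors, 89.7 and 114 without tumors, and 116 and 127 in DMH mice. By sum this was the order of groups seen for Ffar2. The median of the same markers, relative to the DMH mean, did not keep that order: it was 0.31, -0.32 and -0.33 without tumors, against 0.11, -0.09 and 0.002 in DMH mice. With tumors against DMH 4 of 13 fell and 0 rose (median -1.51, all features 0.08): Chga, for chromogranin A (-1.87, limma adjusted p = 0.0332), Sct, for secretin (-1.76, 0.0348), Tph1, for the enzyme that starts serotonin synthesis (-1.51, 0.0295), and Pcsk1, for a prohormone-cleaving enzyme (-1.66, 0.0399). With tumors against without, 3 of 13 fell, and without tumors against DMH 1 of 13 fell. Of all features, 2.26% were called as lower with tumors against DMH, 6.56% with tumors against without and 13.8% without tumors against DMH. Over 24 alternatives between 0 and 8 fell with tumors against DMH. Array 3 with tumors, lowest for Ffar2, had a sum of 49.6, and array 1 with tumors, the lowest sum, was 35.6. The part of these markers in the Ffar2 result was not tested.

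Of 12 neutrophil markers 7 were tested. Ly6g had no named probe, Cxcr2, Ngp and Elane were well above background on 0 arrays, and Camp was on 1. Their summed signal lay between 0.702 and 6.01 with tumors, 0.231 and 0.442 without tumors, and 3.85 and 4.13 in DMH mice. All 3 arrays without tumors had smaller neutrophil sums than any other array, and for Hcar2 they overlapped with array 1 with tumors. Ffar2, known from neutrophils too, was lowest on array 3 with tumors, which had the largest neutrophil sum, 6.01. Ffar2 was also higher on every array without tumors than on every array with tumors, the reverse of the neutrophil sums. Without tumors against DMH 6 of 7 neutrophil markers fell (median -3.70, all features 0.08), and with tumors against without 5 of 7 rose. Of all features 30.5% were called without tumors against DMH (13.8% as lower) and 13.5% with tumors against without. Over 23 alternatives between 2 and 7 fell without tumors against DMH, and over 24 between 0 and 7 rose with tumors against without. S100a8, for a calcium-binding protein of neutrophils, did not stand well above background without tumors (0 of 3 arrays). By the measure used for Tnfsf9 it was 31.0-fold lower than in DMH mice (limma adjusted p = 0.00390). Over 21 alternatives its log2 difference ranged from -6.03 to -1.45. The matrix metalloproteinase gene Mmp9 fell by 3.70 (limma adjusted p = 0.00178). Array 1 with tumors, where Hcar2 was not well above background, had the lowest sum of its group, 0.702, and shared the slide of the arrays without tumors. The 13 of 15 macrophage and dendritic cell markers tested summed to between 39.9 and 65.0 with tumors, 29.6 and 37.0 without tumors, and 41.9 and 43.1 in DMH mice. Without tumors against DMH 3 of these 13 fell, where 30.5% of all features were called (13.8% as lower). The part of these markers in the Ffar2 and Hcar2 results was not tested.

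**Figure D4:**
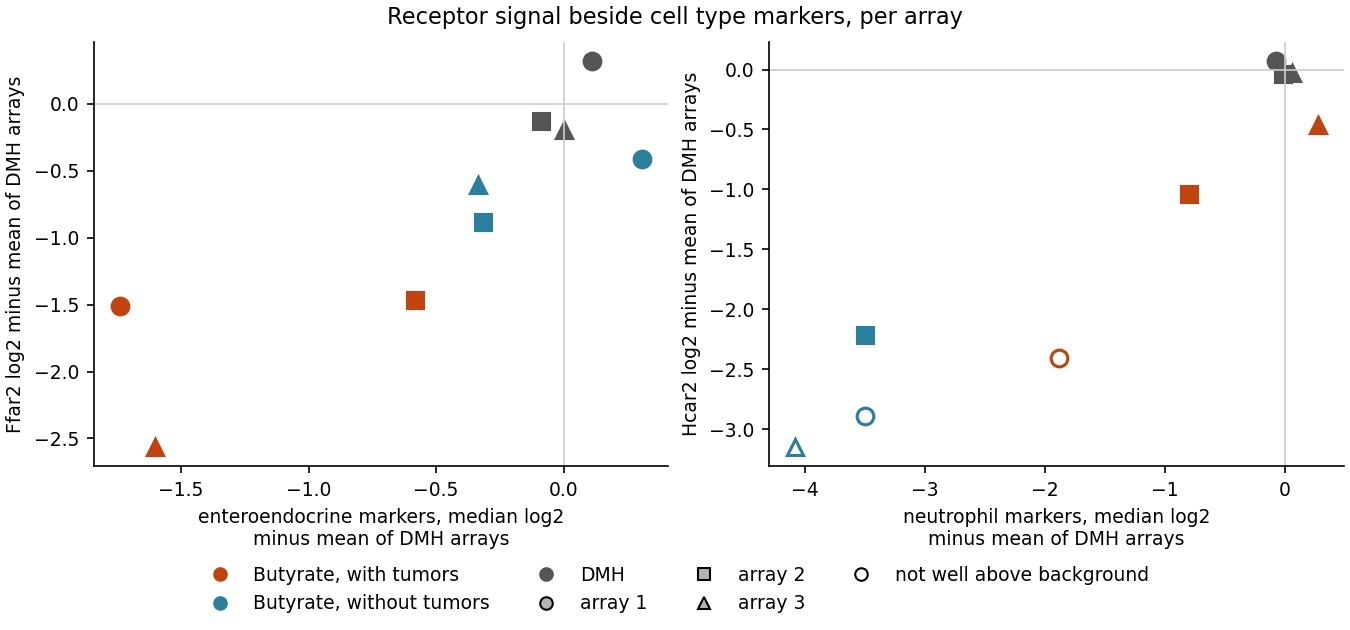
Ffar2 against the median of 13 enteroendocrine markers (left) and Hcar2 against the median of 7 neutrophil markers (right), 1 point per array, both axes as log2 minus the mean of the DMH arrays; colors give the group and open symbols arrays where the receptor was not well above background. Arrays 1 and 3 with tumors lie lowest on the enteroendocrine axis and the 3 arrays without tumors lowest on the neutrophil axis, and the points share array and slide, so no test is attached.

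Other marker lists are given for the makeup of the samples, beside the 30.5% of all features called without tumors against DMH and the 5.7% with tumors against DMH. Of 9 adipocyte markers tested, 2 fell with tumors against DMH, and sums were 14.4 to 20.9 with tumors, 17.4 to 87.4 without tumors and 42.4 to 45.5 in DMH mice. Smooth muscle sums were 441 to 883 with tumors, 388 to 848 without tumors and 223 to 383 in DMH mice, and 5 of 9 genes rose without tumors against DMH. Enteric neuron and glia sums were 4.37 to 14.7 with tumors, 7.37 to 14.04 without tumors and 3.48 to 4.39 in DMH mice, and 5 of 12 rose in that comparison. Colonocyte sums were 603 to 770 with tumors, 857 to 1096 without tumors and 1090 to 1272 in DMH mice, with 2 of 12 rising and 3 falling without tumors against DMH. Of 5 regulatory T cell markers tested limma called 0 in any comparison (1 or 2 at an unadjusted p under 0.05), with sums of 2.06 to 12.2 with tumors, 1.53 to 2.44 without tumors and 1.46 to 1.63 in DMH mice. Ffar2, known from regulatory T cells too, was lowest with tumors and highest in DMH mice, which is not the order of these sums. How far the makeup of the samples enters the receptor values was not tested.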

How the data were processed

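RNA of 9 samples was read on Agilent 1-colour arrays. Per the file headers and the submitters' processing notes, the deposited scanner values are background-subtracted intensity from Feature Extraction 10.5.1.1, not scaled across arrays. The authors' deposited table holds log2 values of 21829 probes, each array shifted by 1 constant of unknown meaning (array medians 2.71 to 3.20), and was used for Ffar2 as an alternative, since Hcar2 and Olfr78 are not among its rows as given here. The columns of median spot intensity and median local background intensity, per the file headers, served for normexp (offset 50). Control spots were left out and outlier spots set missing. Signals were divided by the 75th percentile and taken to log2. Features well above background on at least 3 of 9 arrays were kept, with the brightest probe per gene, 21964 in all. Limma 3.58.1 (R 4.3.3) tests, 2-sided, were adjusted by Benjamini-Hochberg, with calls under 0.05. The comparison of all butyrate arrays used 2 groups, the others 1 fit of 3 groups. Names came from RefSeq GRCm38.p6. Members, lists and tests were chosen with earlier results of these data known. By rule, the text names the members, the 5 nearest genes of each (1 of them is not reported here), and of each list up to 6 called genes by smallest adjusted p over all butyrate arrays, with called markers. On simulated data of 21855 features, the fit recovered 64% to 74% of genes changed by a log2 of 2 and 23% to 35% of those changed by 1. The simulated arrays were independent, with 1 spread per gene in all groups and no slide effect. These rates may therefore not hold for the real arrays, which share slides and differ in spread between groups. Precision is limited by the number of arrays. Alternatives covered scaling, background, filters, probes, priors, blocks and left-out arrays.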

Additional observations from a re-analysis of the deposited data

Results flagged for a closer look

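Ffar2 differed between the butyrate groups in its distance from DMH mice: the difference, with tumors minus without tumors, was -1.21 on the log2 scale and passed limma's test. The Ffar2 call held under 10 alternatives and was lost under 14. Other genes named in the report also passed that test. Their calls held under between 5 of 22 alternatives (Nlrp3) and 21 of 24 (Gpr183 and Gnb4). Among other receptor genes the values were -0.83 for Gpr35, -1.24 for Gpr119, -1.42 for Pparg, 2.10 for Gpr183 and 1.39 for Gpr65. Among G protein genes they were -0.73 for Gnaq, -0.89 for Gna11, -0.62 for Gnb2, 1.37 for Gnb4 and -0.82 for Gng12. Among genes tied to the receptors in colon they were 1.73 for Il1b, 1.34 for Tnf, 1.49 for Nlrp3, -0.71 for Casp1, -2.23 for Aldh1a1, -0.79 for Ptger4, 2.51 for Cxcl2 and 5.05 for Cxcl5. Cxcl2 had no array without tumors well above background (0 of 3). Measured against the lowest signal well above background on each array, or its own where higher, it was 3.86-fold higher with tumors. Over 22 alternatives its log2 difference ranged from 0.41 to 3.55. Among genes nearest in pattern, chosen for likeness on these same arrays and so no further support, they were -1.40 for Cldn15, -0.95 for Grpr, -1.15 for Rbp4, 1.73 for Fcgr1 and 1.84 for 4931414P19Rik. By the measure used for Cxcl2 the last was 2.82-fold higher with tumors, and over 22 alternatives its log2 difference ranged from 0.08 to 2.45. Slide 1 held all arrays without tumors and 1 of 3 arrays with tumors.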

How the results depend on the processing

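Counts of called features moved widely. For all butyrate arrays against DMH (2020) the count was 35 with no scaling, 1197 from the authors' deposited table, 511 when dim probes were kept, 12485 with array weights, 583 with a replicate block, 17 with slide as a random block, 4 with DMH arrays 2 and 3 averaged, 5052 with 3 groups in the fit, and 7 to 3626 leaving out each array. With tumors against DMH (1252) it was 35 with no scaling, 1956 from the authors' table, 190 with no filter, 5681 with array weights, 477 with a replicate block, 4 with slide as a random block, 4 with DMH arrays averaged, 2504 without slide 1, 356 with only these groups, and 4 to 1792 leaving out each array. Without tumors against DMH (6695) it was 1550 with no scaling, 14963 with array weights, 1006 with slide as a random block, 2907 with DMH arrays averaged and 2841 to 9941 leaving out each array. With tumors against without (2976) it was 1 with no scaling, 1442 with no filter, 9242 with array weights, 1145 with DMH arrays averaged, 0 by limma with only these groups (5838 at an unadjusted p under 0.05), and 177 to 7774 leaving out each array. With no scaling the median of all features was -0.76, -0.53, -1.004 and 0.48 in these 4 comparisons, against 0.08, 0.08, 0.08 and 0.01 with scaling.

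Ffar2 over all butyrate arrays passed with array weights (-0.81), without slide 1 (-2.01) and with 3 groups (-1.24). Fits without slide 1 keep only arrays 2 and 3 with tumors beside the DMH arrays. With tumors against DMH it no longer passed with no scaling (-2.46), no filter (-1.85), slide as a random block (-1.84), DMH arrays averaged (-1.93) or only these groups (-1.85), and ranged from -2.04 to -1.49 leaving out each array. Without tumors against DMH it passed with array weights (-0.71) and only these groups (-0.63). With tumors against without it no longer passed with quantile normalization (-1.23), no scaling (-0.74), no filter (-1.21), slide as a fixed (-0.88) or random block (-1.04), DMH arrays averaged (-1.21) or only these groups (-1.21), ranged from -1.40 to -0.85 leaving out each array, and was -0.88 within slide 1. Hcar2 over all butyrate arrays passed with quantile normalization (-2.03), normexp then quantile normalization (-0.74), a trended robust prior (-2.02), array weights (-2.30) and 3 groups (-2.02), and ranged from -2.34 to -1.80 leaving out each array. Without tumors against DMH it no longer passed with slide as a random block (-2.33). With tumors against without it passed with array weights (1.59), ranged from 1.03 to 2.00 leaving out each array, and was 0.34 within slide 1. Deviations from the group means correlated by -0.01 to 0.26 between arrays of the same replicate number in different groups. Between arrays of different number they correlated by -0.24 to 0.23, so whether replicate numbers pair the samples is not settled. The replicate block changed no call of a receptor, and with tumors against DMH it took the SE of Olfr78 from 0.77 to 0.57.

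Olfr78, never called, changed sign over all butyrate arrays with array weights (0.11), slide as a random block (0.051) and without slide 1 (0.80; -0.41 to 0.26 leaving out each array), with tumors against DMH with array weights (0.38) and without slide 1 (0.80; -0.88 to 0.80), without tumors against DMH with array weights (0.12) and slide as a random block (0.59; -0.45 to 0.40), and with tumors against without under quantile normalization alone (-0.20) or after normexp (-0.081), slide as a fixed (-1.71) or random block (-0.87) and within slide 1 (-1.71; -0.78 to 0.90). Ffar2 minus Hcar2 turned with normexp background (-0.68) and without slide 1 (-1.26). With no scaling Rgs16 turned to -0.051 over all butyrate arrays, and without tumors against DMH Gpr35 turned to -0.52, Ppard to -0.25, Pparg to -0.038, Gnai3 to -0.62, Gnaq to -0.25, Gna11 to -0.013, Gng12 to -0.24, Reep1 to -0.17 and Ptger4 to -0.34, each by about the shift that leaving out the scaling gives all features. With probes of a gene averaged Gpr35 turned to -0.39 and Gnb4 to 0.018. The cause of the other changes was not tested. No receptor probe failed the filter, so the separate test for dim probes was not run. Slide as a fixed block could not be fitted against DMH, since no slide holds both. Fits within slide 1 and pairs of receptors between butyrate groups or without slide 1 were chosen after seeing the data.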
